A study of Mus musculus with 15 samples.

Results

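Antibodies and T cell receptors are built from gene segments, and 174 of these segments were followed across 15 RNA sequencing libraries of mouse skin. The set was every row of the count table whose Ensembl identifier maps to the symbol of an immunoglobulin segment (Igh, Igk or Igl) or a T cell receptor segment (Tra, Trb, Trg or Trd), if it had at least 10 counts summed over the 15 libraries. Of 56059 genes in the table, 615 carried such a symbol, 284 of them had any count and 174 met the minimum. These are 146 immunoglobulin segments (74 heavy chain, 67 kappa and 5 lambda) and 28 T cell receptor segments (9 alpha, 16 beta, 2 delta and 1 gamma). By kind they are 15 constant genes and 159 variable (V) segments. No joining or diversity segment had a count. Just inside the minimum lay Trav8d-2, Ighv5-9-1, Trbv2 and Igkv12-38 with 10 counts each, and just outside it Trav12-1, Trbv20 and Ighv2-6-8 with 9 counts each.

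The samples come from a mouse model of sclerodermatous graft-versus-host disease, in which grafted immune cells react against their host and the skin hardens. All groups were transplanted. The combination group (n = 4) received an allogeneic graft, from a donor that differs from the host, and then both Wnt-C59 at 5 mg/kg and belumosudil at 150 mg/kg. The Wnt-C59 group (n = 4) received an allogeneic graft and Wnt-C59 alone at 5 mg/kg. The allogeneic group (n = 3) received an allogeneic graft and 0.4% methylcellulose, and the syngeneic group (n = 4) received a graft from a genetically matched donor and 0.4% methylcellulose. Every agent was given by mouth each day from day 21 to day 49 after transplantation. Wnt-C59 blocks porcupine, which attaches the lipid that Wnt proteins need to leave the cell. Belumosudil is an inhibitor of ROCK2, a kinase that acts on the cytoskeleton. The labels give no strain, age or sex, and skin without a transplant was not analysed here. Columns of the combination group carry a 2-letter code that the labels do not spell out. They were assigned to this group because every other group was already accounted for. Libraries of the treated groups are called by their column numbers.

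In a B cell, 1 V segment of the heavy chain and 1 of a light chain are joined to shorter segments and spliced to a constant gene. The V segment shapes the antigen binding site, while the heavy constant gene sets the class (Ighm for IgM, Igha for IgA, Ighg1 for IgG1). Plasma cells, the antibody-secreting descendants of B cells, hold far more immunoglobulin RNA than resting B cells. Alpha beta T cells carry Trac with Trbc1 or Trbc2, and gamma delta T cells, which reside in healthy mouse epidermis, carry Trdc with a gamma constant gene. In whole skin, fewer cells of a type and less RNA per cell cannot be told apart.

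V segments are short and resemble each other, which bears on every count below, so the ends of a few called or abundant ones are shown first. All sequences are GENCODE M21 transcripts (build GRCm38, symbols and sequence only), read 5′ to 3′ on the coding strand and ending at the last base of the transcript. The capitals mark the motif TANNNNTGT, whose last 3 bases encode the cysteine near the end of a V segment.
Ighv1-7: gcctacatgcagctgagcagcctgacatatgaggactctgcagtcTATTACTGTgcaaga
Ighv1-72: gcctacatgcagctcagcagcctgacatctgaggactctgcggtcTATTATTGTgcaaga
Iglv1: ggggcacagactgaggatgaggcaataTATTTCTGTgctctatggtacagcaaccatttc
Trgv2: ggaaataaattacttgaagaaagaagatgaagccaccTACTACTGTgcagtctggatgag
Trbv26: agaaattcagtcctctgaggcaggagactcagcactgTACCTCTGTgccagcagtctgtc
The motif was in the last 60 bases of 134 of the 159 V segments (84.3%) on the coding strand and of 11 (6.9%) on the other strand. In the 60 bases before these it was in 0 segments on the coding strand and in 2 (1.3%) on the other.

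The next lines show a pair of kappa segments that were both called higher in allogeneic than in syngeneic skin, with the bases at which they differ in capitals (13 of the last 150 bases). They were 94.4% identical over 377 aligned bases.
Igkv12-46: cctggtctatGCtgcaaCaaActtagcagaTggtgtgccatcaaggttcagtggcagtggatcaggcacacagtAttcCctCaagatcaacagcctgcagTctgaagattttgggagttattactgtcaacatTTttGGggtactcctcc
Igkv12-44: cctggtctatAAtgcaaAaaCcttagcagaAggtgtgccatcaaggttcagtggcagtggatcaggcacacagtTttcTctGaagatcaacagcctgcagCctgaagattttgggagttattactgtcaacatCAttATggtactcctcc
Igkv12-46 had 35 counts in combination library 3, 82 in Wnt-C59 library 5, 56 in allogeneic library 1 and 121 in allogeneic library 3, its 4 highest libraries. Igkv12-44 had 16, 22, 38 and 69 counts in the same 4 libraries, which are also its 4 highest. Whether cells used both segments or reads of one were counted for the other was not tested. A second pair, also higher in allogeneic skin, differed at 17 of the last 150 bases and was 90.8% identical over 347 bases.
Igkv6-17: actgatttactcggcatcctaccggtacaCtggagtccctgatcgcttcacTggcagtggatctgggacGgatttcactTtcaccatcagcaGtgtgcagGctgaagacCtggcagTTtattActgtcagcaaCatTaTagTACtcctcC
Igkv6-15: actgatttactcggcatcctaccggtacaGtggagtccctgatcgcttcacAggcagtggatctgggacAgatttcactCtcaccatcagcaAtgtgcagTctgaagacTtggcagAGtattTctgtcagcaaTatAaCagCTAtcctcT
Over all 135 immunoglobulin V segments, the nearest other segment of the same locus was at a median of 95.4% identity (range 73.2 to 99.7%), and 75 had one at 95% or above. The nearest to Ighv1-72 was Ighv1-62-3 at 99.2%. Values of single V segments are therefore uncertain wherever reads could be shared, and the constant genes carry most of what follows.

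Library totals ran from 16.26 to 28.78 M (mega) estimated counts. The immunoglobulin segments together held 3082 to 9678 counts in combination libraries, 1085 to 14665 in Wnt-C59, 2086 to 12188 in allogeneic and 350.0 to 722 in syngeneic libraries. Wnt-C59 library 5 (14665) and allogeneic library 3 (12188) stood apart from the rest of their groups, whose other libraries reached 1401 and 3048, so the results that they move most are also given without them. The T cell receptor segments held 533 to 1149 counts in combination, 543 to 731 in Wnt-C59, 545 to 675 in allogeneic and 341 to 580 in syngeneic libraries. Fractional values made up 44.8 to 60.6% of detected genes in treated libraries and 31.1 to 34.4% in vehicle libraries. A technical difference that follows treatment cannot be told apart from it. Keratinocyte markers, a check of the tissue, summed to 31230 to 45440, 34100 to 53760, 22760 to 39730 and 10670 to 19600 CPM (counts scaled to a common library size) in combination, Wnt-C59, allogeneic and syngeneic libraries. Skeletal muscle markers summed to 18.9 to 26400, 12750 to 40920, 7014 to 27850 and 2950 to 5123 CPM in the same order, so the amount of muscle RNA varied widely within groups, and its part in the results was not tested. Fibroblast markers summed to 3461 to 7163, 3706 to 7148, 1391 to 2646 and 4288 to 10140 CPM.

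The first comparison asks how allogeneic skin differed from syngeneic skin. Antibody and alpha T cell receptor RNA was higher and delta T cell receptor RNA lower in allogeneic skin. Of the 174 segments, 50 passed the filter on low counts, and of these 28 were called higher and 1 lower (edgeR quasi-likelihood test, Benjamini-Hochberg adjusted p under 0.05 over all 18651 genes tested). Over all genes 29.8% were called in either direction. Without allogeneic library 3, 18 segments were called, and without allogeneic library 2, 45. The filter was applied anew in these fits, so the segments tested could differ from the 50. The 50 tested segments had a median log2 fold change of 6.10, against -0.07 over all genes. A segment could pass the filter through the allogeneic or treated libraries alone, so this count describes the tested segments and not all 174. No label says that the libraries of a group come from separate animals, so these p-values measure only the spread between these samples, which may be technical.

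**Figure D1:**
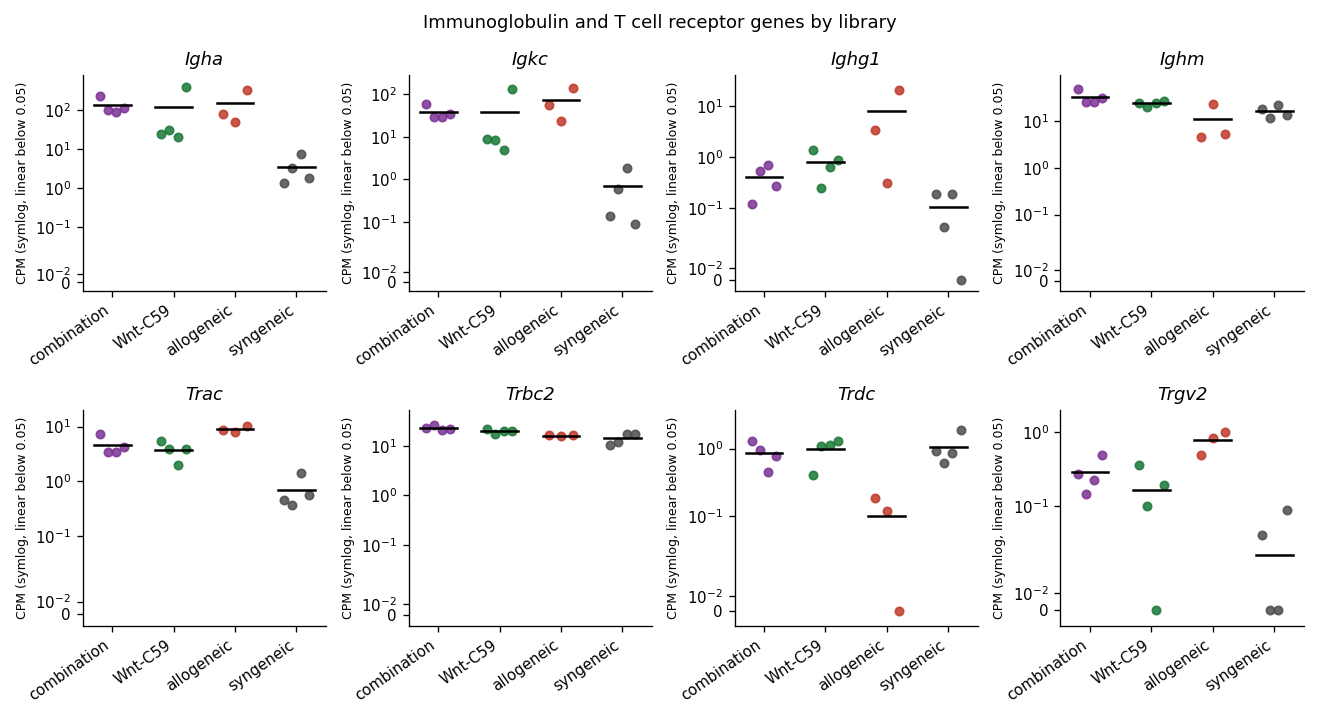
Level of 8 genes in each library (points, CPM on a symmetric log axis that is linear below 0.05) with the group mean (bar). Igha, Igkc and Trac lie higher in all 3 allogeneic libraries than in any syngeneic library, Trdc lies lower, and Wnt-C59 library 5 is the high point of Igha and Igkc in its group.

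Igha, the constant gene of IgA, had the most counts of any segment summed over the 15 libraries. It stood at 224, 97.8, 87.4 and 115 CPM in combination libraries 2 to 5 and at 24.4, 31.6, 20.5 and 399 CPM in Wnt-C59 libraries 1, 2, 4 and 5. It stood at 76.9, 48.9 and 332 CPM in allogeneic libraries, against 1.33, 3.34, 7.37 and 1.81 CPM in syngeneic libraries. Allogeneic and syngeneic libraries did not overlap. Igha was higher in allogeneic skin by 5.46 ± 1.23 (log2 fold change ± SE, edgeR adjusted p = 0.006), and by 4.20 without allogeneic library 3.

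Igkc, the constant gene of kappa light chains, stood at 60.7, 29.8, 30.04 and 34.4 CPM in combination libraries and at 8.71, 8.43, 4.89 and 131 CPM in Wnt-C59 libraries. It stood at 57.5, 23.5 and 144 CPM in allogeneic libraries, against 0.138, 0.603, 1.88 and 0.0882 CPM in syngeneic libraries. The groups did not overlap between allogeneic and syngeneic skin, and Igkc was higher by 6.79 ± 1.40 (edgeR adjusted p = 0.0036), and by 5.92 without allogeneic library 3. Per kilobase of transcript Igkc averaged 141 ± 117 CPM and Igha 57.2 ± 58.5 CPM in allogeneic skin (SD, n = 3), so the short kappa gene had the higher level per length there. Igkc made up 30.3 to 42.8% of the summed Igkc and Igha counts in the 3 allogeneic libraries, 21.3 to 25.6% in combination and 19.3 to 26.3% in Wnt-C59 libraries.

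The IgG genes were far lower. Ighg1 had 3, 11, 12 and 6 counts in combination libraries, 27, 5, 12 and 18 in Wnt-C59 libraries, 56, 5 and 358 in allogeneic libraries and 4, 1, 4 and 0 in syngeneic libraries. Allogeneic libraries were all above the syngeneic ones, but allogeneic library 2 by a single count. Ighg1 was higher in allogeneic skin by 6.20 ± 1.19 (edgeR adjusted p = 0.0016), and by 4.14 (0.012) without allogeneic library 3, which held most of its allogeneic counts. With an adipocyte score in the model the call was lost (0.076). Ighg2b, which encodes IgG2b, averaged 0.915 ± 1.03 CPM in 3 allogeneic and 0.0345 ± 0.0439 CPM in 4 syngeneic libraries (SD). The ratio of its counts per total was 26.5, with an exact 95% Poisson interval from 8.51 to 133 that covers counting error only, and the libraries of both groups overlapped. Its call was lost without allogeneic library 1 (edgeR adjusted p = 0.11) and with limma-voom (0.12). Over all alternative fits (edgeR, DESeq2 and limma-voom) the Ighg2b call held in 12 of 15, with adjusted p up to 0.34. Ighg2c, Ighe and Iglc3 were too low to test.

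Ighm, the constant gene of IgM, did not move with the others. It stood at 48.6, 25.4, 25.9 and 31.5 CPM in combination, 24.7, 19.6, 24.8 and 27.4 in Wnt-C59, 4.56, 23.7 and 5.34 in allogeneic and 18.2, 11.8, 22.2 and 13.4 CPM in syngeneic libraries. In allogeneic skin 2 libraries lay below every syngeneic library and the third lay above them all. Its difference from syngeneic skin was -0.55 ± 0.47 (edgeR adjusted p = 0.41), and -1.70 with an adjusted p of 0.0016 without allogeneic library 2. Ighd, which encodes IgD, differed by -0.21 ± 0.93 (adjusted p = 0.89).

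The class make-up followed from these values and was not tested. Igha held 75.2 to 81.6% of heavy constant counts in combination libraries, 43.1 to 92.9% in Wnt-C59, 66.5 to 92.6% in allogeneic and 6.64 to 24.5% in syngeneic libraries. Ighm held 17.7 to 22.3%, 6.39 to 52.2%, 1.49 to 32.2% and 74.0 to 90.6% in the same order of groups. The lowest Igha share among libraries with an allogeneic graft was that of Wnt-C59 library 4, at 43.1% (exact binomial 95% interval 39.9 to 46.4%, counting error only). The highest among syngeneic libraries was 24.5% (21.3 to 28.0%) in library 3. Ighg1 was at most 5.63% of heavy constant counts, in allogeneic library 3. Lambda constant genes made up 2.05 to 5.94% of light constant counts in combination, 2.08 to 9.57% in Wnt-C59 and 1.97 to 4.85% in allogeneic libraries. The 4 syngeneic libraries held 2 to 41 Igkc counts, too few to give a lambda share.

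**Figure D2:**
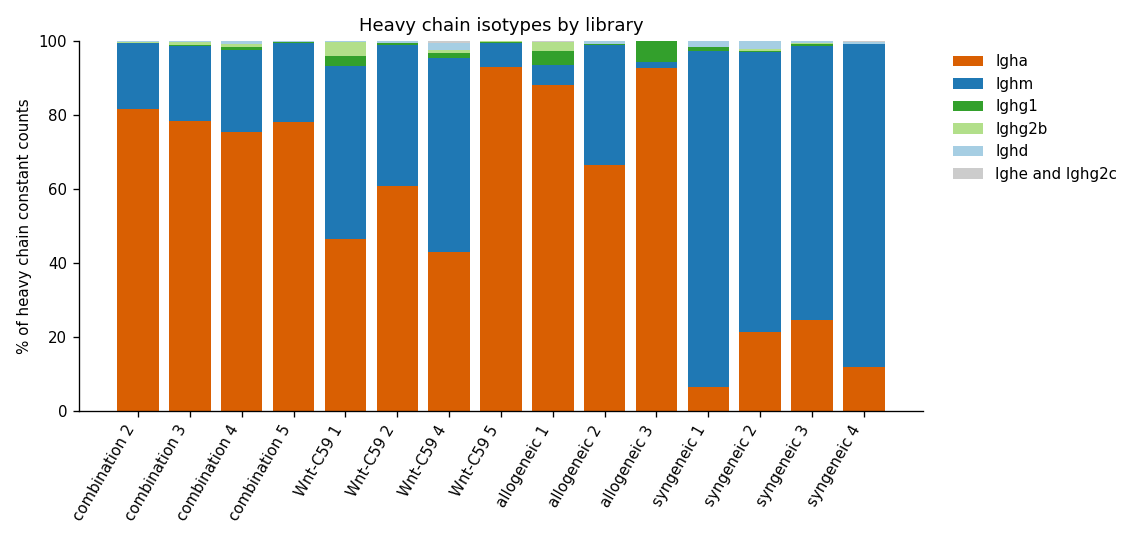
Share of heavy chain constant counts (%) held by each class in every library. Igha holds between 43.1 and 92.9% of the bar in the 11 libraries with an allogeneic graft and at most 24.5% in the 4 syngeneic libraries, where Ighm holds 74.0 to 90.6%.

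The 135 immunoglobulin V segments were nearly silent in syngeneic skin. There 115 of them had 0 counts in every library, and the summed V counts were 5, 18, 24 and 0. Summed V counts were 957, 429, 465 and 800.0 in combination libraries, 164, 167, 77 and 2666 in Wnt-C59 libraries and 645, 445 and 3165 in allogeneic libraries. Each combination library had a count on 68 to 88 V segments, each Wnt-C59 library on 34 to 115, each allogeneic library on 57 to 104 and each syngeneic library on 0 to 12. In the plot of V segments by library, libraries with more V counts tended to have more segments detected, so the number detected was not compared between groups.

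**Figure D3:**
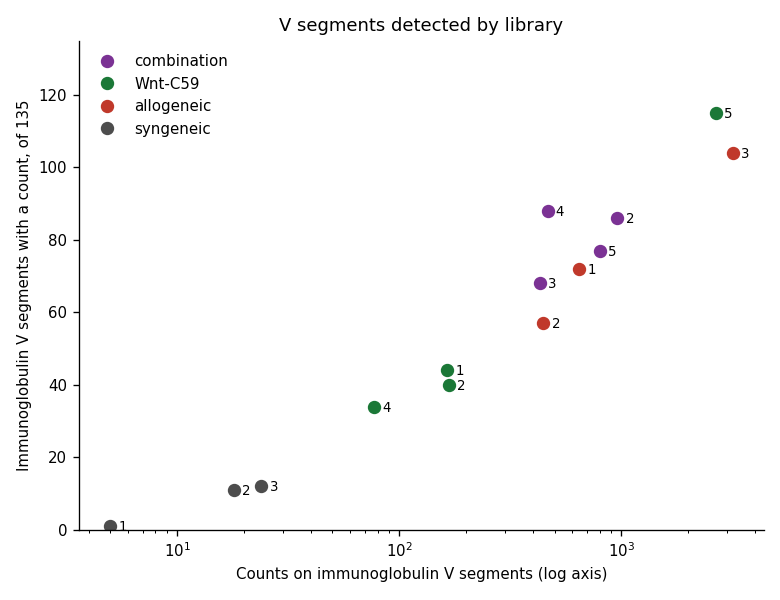
Immunoglobulin V segments with at least a count (of 135) against the counts on V segments (log axis), a point per library with its number. Libraries with more V counts tended to have more V segments detected, up to 115 in Wnt-C59 library 5, and syngeneic library 4, with 0 counts, is not on the log axis.

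Among V segments, 36 immunoglobulin and 2 T cell receptor segments were tested, of which 19 and 2 were called higher in allogeneic skin. Over all genes 14.6% were called higher. Segments could pass the filter through libraries with an allogeneic graft alone. The nearly silent syngeneic libraries left little room for a lower call, and 0 were called lower. Ighv1-7 had the smallest adjusted p (0.00061). It stood at 0.427, 0.529, 0.283 and 0.226 CPM in combination libraries, 0, 0, 0 and 0.0951 in Wnt-C59, 0.729, 0.719 and 4.90 in allogeneic and 0 in all 4 syngeneic libraries. Against a floor of 3 counts per syngeneic library it was at least 15.5-fold higher in allogeneic skin. On the same floor Igkv6-17 was at least 11.4-fold higher (adjusted p = 0.0024), Igkv6-15 at least 27.1-fold (0.0077, and 0.061 with an adipocyte score in the model), Ighv1-72 at least 22.1-fold (0.018) and Iglv1 at least 23.0-fold (0.015, and 0.052 without allogeneic library 3). Igkv10-96 and Igkv1-110 had a single count in 1 syngeneic library, and their count ratios were 180 (exact 95% Poisson interval 31.5 to 7160) and 93.2 (16.04 to 3750). These p-values are edgeR's, adjusted over all genes.

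The leading V segments were shared by few libraries. The leading heavy V segment was Ighv1-82 in combination library 2 (80 of 435 heavy V counts), Ighv1-39 in library 3, Ighv1-53 in library 4 and Ighv1-76 in library 5. In the Wnt-C59 group it was Ighv1-64 in library 1, Ighv14-4 in library 2, Ighv6-6 in library 4 and Ighv1-53 in library 5 (190 of 1166 counts, 16.3%). In allogeneic skin it was Ighv1-72 in libraries 1 and 2 (51 of 222 and 25 of 142 counts) and Ighv1-82 in library 3 (174 of 1409). The leading kappa segment was Igkv4-59 in combination library 2 and in Wnt-C59 library 2, and a different segment in each of the other 9 libraries with an allogeneic graft, such as Igkv6-15 with 76 of 397 kappa V counts in allogeneic library 1. No leading segment in these 11 libraries held more than 23.0% of the counts of its chain. Counts were spread over an effective number (inverse Simpson index) of 9.07 to 21.1 heavy and 9.68 to 27.7 kappa segments.

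**Figure D4:**
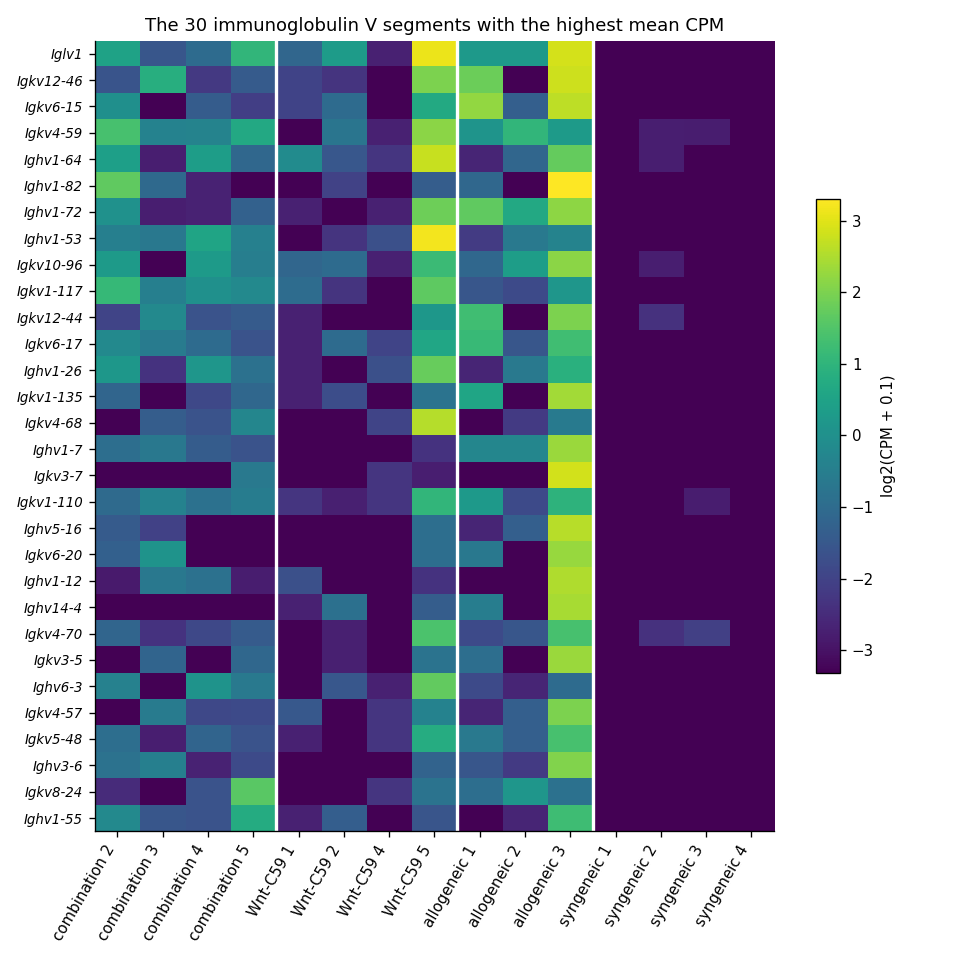
The 30 immunoglobulin V segments with the highest mean CPM (rows) in each library (columns), coloured by log2(CPM + 0.1). Wnt-C59 library 5 and allogeneic library 3 hold the brightest cells, on partly different rows, and the syngeneic columns are dark on nearly every row.

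Of the 135 immunoglobulin V segments, 61 had at least 50% of all their counts in 1 library. The highest library was Wnt-C59 library 5 for 53 segments and allogeneic library 3 for 48. These 2 libraries also held the most immunoglobulin V counts, 2666 and 3165, and the part of these totals in the concentration was not tested. Ighv9-2 had all of its 42 counts in allogeneic library 3, and Igkv4-63 had 98.1% of its 52.8 counts in Wnt-C59 library 5; both were chosen after their values were seen. Of the 22 alpha and beta V segments, 2 had at least 50% of their counts in 1 library.

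Among T cell receptor genes Trac, the alpha constant gene, changed most clearly. It stood at 7.25, 3.51, 3.39 and 4.25 CPM in combination libraries, 5.54, 3.92, 1.98 and 3.86 in Wnt-C59, 8.69, 7.96 and 10.2 in allogeneic and 0.459, 0.371, 1.42 and 0.573 CPM in syngeneic libraries. All libraries with an allogeneic graft lay above all syngeneic libraries. Trac was higher in allogeneic than in syngeneic skin by 3.65 ± 0.46 (edgeR adjusted p = 7.1e-05).

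The beta constant genes did not follow it. Trbc2 stood at 23.4, 27.1, 21.2 and 22.4 CPM in combination, 21.6, 17.1, 19.8 and 20.4 in Wnt-C59, 16.4, 16.01 and 16.3 in allogeneic and 10.6, 12.2, 17.3 and 17.8 CPM in syngeneic libraries. Allogeneic skin lay within the syngeneic range, with a difference of 0.17 ± 0.18 (edgeR adjusted p = 0.53), and Trbc1 differed by 0.34 ± 0.32 (0.46). Trbc2 held 70.2 to 84.5% of beta constant counts in all 15 libraries. Trbc1 and Trbc2 transcripts are 83.4% identical over 705 bases, and reads shared by both could be counted for either. Trac made up 9.33 to 17.3% of the summed alpha, beta and delta constant counts in combination, 6.51 to 17.0% in Wnt-C59, 28.4 to 31.3% in allogeneic and 2.25 to 5.87% in syngeneic libraries.

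Trdc, the delta constant gene, was the 1 segment called lower in allogeneic skin. It had 33, 20, 8 and 17 counts in combination, 8, 22, 22 and 27 in Wnt-C59, 3, 2 and 0 in allogeneic and 20, 13, 19 and 43 counts in syngeneic libraries. All 3 allogeneic libraries lay below every library of the other groups. The log2 fold change against syngeneic skin was -3.36 ± 0.75 (edgeR adjusted p = 0.0039). With the replicate number as a block this call was lost (edgeR adjusted p = 0.066). The delta V segment Trdv4, too low to test, had 0 counts in all allogeneic libraries and 3, 0, 0 and 16 counts in syngeneic libraries.

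The gamma chain did not fall with it. Trgv2 stood at 0.271, 0.144, 0.226 and 0.498 CPM in combination, 0.359, 0.0992, 0 and 0.190 in Wnt-C59, 0.486, 0.838 and 1.015 in allogeneic and 0.0459, 0, 0 and 0.0882 CPM in syngeneic libraries. It was called higher in allogeneic than in syngeneic skin (edgeR adjusted p = 0.0031), with a count ratio of 23.0 (exact 95% Poisson interval 7.33 to 116). The gamma constant genes carry Tcrg symbols that the rule does not take. Of 3 tested, Tcrg-C2 and Tcrg-C4 were called higher in allogeneic skin and 0 lower. Tcrg-C2 averaged 4.22 ± 0.738 CPM in 3 allogeneic and 0.123 ± 0.158 CPM in 4 syngeneic libraries (SD), while Tcrg-C1 differed by -0.20 (adjusted p = 0.85). V segments of the beta chain held 50, 52 and 58.9 counts in allogeneic libraries, against 4, 8, 2 and 9 in syngeneic libraries, over 14 segments. Trbv26, the 1 beta V segment tested, had 0 counts in all syngeneic libraries and was at least 2.71-fold higher in allogeneic skin (edgeR adjusted p = 0.0066, and 0.056 with an adipocyte score in the model). Alpha V counts were thin: 70 of 111 alpha V symbols had a count but 8 reached 10 counts over all libraries.

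Genes of the receptor's signalling complex moved with Trac. Of 16 listed (CD3 chains, coreceptors and the kinases behind them), 15 were called higher in allogeneic than in syngeneic skin and 0 lower, with a median log2 fold change of 2.85. The share to set beside this and the other list counts of this comparison is the 29.8% of all genes called in either direction. Cd3e, a chain of the CD3 complex, averaged 10.6 ± 2.29 and 1.25 ± 0.420 CPM in allogeneic and syngeneic skin, and Cd8a, the coreceptor of cytotoxic T cells, 14.8 ± 6.32 and 0.146 ± 0.140 CPM (SD, n = 3 and 4). Of 8 genes listed for gamma delta T cells, 5 were tested. Sox13, a transcription factor of these cells that other skin cells also express, was called lower at 8.78 ± 1.18 CPM in allogeneic against 33.6 ± 6.40 CPM in syngeneic skin.

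Plasma cell genes split. Of 12 listed 10 were tested, 3 were called higher in allogeneic than in syngeneic skin (Jchain, Pou2af1 and Xbp1) and 1 lower (Txndc5), with a median of 0.36. Jchain, which links IgA and IgM into polymers, had 440.0, 161, 138 and 331 counts in combination libraries, 55, 66, 15 and 1206 in Wnt-C59, 312, 280.0 and 1100.0 in allogeneic and 3, 5, 12 and 1 in syngeneic libraries. Like Igha it was highest in Wnt-C59 library 5 and allogeneic library 3, and it was higher in allogeneic skin by 7.05 ± 1.47 (edgeR adjusted p = 0.0036). Sdc1, which marks plasma cells and is also made by keratinocytes, had 6844 to 8007 counts in allogeneic and 8662 to 13132 in syngeneic libraries. The list summed to 754 to 883 CPM in allogeneic and 689 to 962 CPM in syngeneic libraries.

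Genes of B cells stayed low. Ms4a1, which encodes CD20, had 0 counts in all combination and allogeneic libraries and at most 2 in any other library. The 12 listed genes summed to 17.6 to 21.5 CPM in allogeneic and 14.1 to 24.0 CPM in syngeneic libraries. Of 5 tested, Cd22 was called higher (5.83 ± 2.77 against 0.228 ± 0.0765 CPM) and 0 lower. Rag1 had at most 2 counts in any library and Rag2 had 0.

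Receptors that bind antibody were higher in allogeneic than in syngeneic skin. Of 9 tested, 7 were called higher and 0 lower. Fcgr2b, the inhibitory receptor for IgG, averaged 384 ± 152 and 36.4 ± 6.20 CPM, and Fcgr3, an activating one, 184 ± 68.9 and 13.6 ± 3.62 CPM in allogeneic and syngeneic skin. Macrophages carry several of these receptors, and the 8 macrophage markers were all called higher too, at 3502 to 4425 CPM summed in allogeneic and 409 to 778 CPM in syngeneic libraries. The part of macrophage number in the receptor values was not tested. Among 7 tested signals for B cells, Cxcl13, Tnfsf13, Tnfsf13b and Cxcr4 were called higher and Ccl19 lower. Cxcl13, a chemokine that draws B cells, averaged 33.9 ± 10.7 CPM in allogeneic and 2.43 ± 1.36 CPM in syngeneic skin.

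The second question is what treatment did to these segments in skin with an allogeneic graft. Most antibody segments did not pass the test, and the T cell receptor genes split between Trac, which was lower with Wnt-C59, and Trdc, which was higher with both treatments. Between Wnt-C59 and allogeneic skin 1 segment was called higher and 5 lower of 50 tested, where 50.8% of all genes were called in either direction. Between combination and allogeneic skin 3 were called higher and 3 lower, where 54.5% of all genes were called. Both counts of segments were below the share over all genes. The comparisons share the 3 allogeneic libraries.

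Trdc rose with both treatments. Its log2 fold change against allogeneic skin was 3.06 ± 0.75 in combination skin (edgeR adjusted p = 0.0033) and 3.23 ± 0.75 in Wnt-C59 skin (0.0025). The counts behind it, given above, did not overlap between treated and allogeneic libraries. With an adipocyte score in the model the combination call was lost (0.093), and the Wnt-C59 value had an adjusted p of 0.05. With the replicate number as a block the Wnt-C59 call was lost (edgeR adjusted p = 0.16). With Wnt-C59, Trac was lower by a log2 fold change of -1.23 ± 0.42 (edgeR adjusted p = 0.025). Its 4 Wnt-C59 libraries lay below all 3 allogeneic ones. In combination skin its difference was -0.96 ± 0.42 (0.066), again with all treated libraries lower, and it was called by DESeq2 (0.042) and limma-voom (0.019). The call with Wnt-C59 was lost without library 4 of that group (adjusted p = 0.067), allogeneic library 1 (0.051) or allogeneic library 3 (0.083). Over all alternative fits (edgeR, DESeq2 and limma-voom) the Trac call with Wnt-C59 held in 11 of 17, with adjusted p up to 0.14. Trgv2 was also called lower with Wnt-C59, by -2.22 ± 0.79 (0.029), and the call was lost without either of Wnt-C59 libraries 2 and 4 or allogeneic libraries 2 and 3 (adjusted p 0.053 to 0.097). It was also lost with no filter on low counts (0.06), with a GC trend removed (0.078), with an adipocyte score in the model (0.094) and without both Wnt-C59 library 5 and allogeneic library 3 (0.13).

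Ighm rose in combination skin by 1.55 ± 0.48 (edgeR adjusted p = 0.015), with all 4 combination libraries above the 3 allogeneic ones, and the call was lost without allogeneic library 1 (0.055) or library 3 (0.061) and with the adipocyte score (0.29, adjusted p = 0.81). In Wnt-C59 skin the difference was 1.11 ± 0.48 (0.067), and it was called at 2.28 without allogeneic library 2 (0.00012), by limma-voom (0.011) and by DESeq2 (0.036). Trbc2 was called higher in combination skin by 0.54 ± 0.18 (0.023), and the call was lost without combination library 3 or any 1 of the allogeneic libraries (0.054 to 0.066). Over all alternative fits (edgeR, DESeq2 and limma-voom) the Trbc2 call held in 9 of 17, with adjusted p up to 0.45.

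Ighg1 was called lower in combination skin by -4.33 ± 1.05 (edgeR adjusted p = 0.0033) and in Wnt-C59 skin by -3.35 ± 1.00 (0.012). Treated libraries had 3 to 27 counts, against 56, 5 and 358 in allogeneic libraries, so the groups overlapped at allogeneic library 2. Without allogeneic library 3 the fold changes were -2.22 (0.068) in combination skin and -1.26 (0.29) in Wnt-C59 skin. Ighv1-7 was called lower in combination skin by -2.51 ± 0.80 (0.019), and by -0.96 (0.34) without allogeneic library 3. In Wnt-C59 skin, with 2 counts in all, its count ratio to allogeneic skin was 0.0115 (exact 95% Poisson interval 0.00137 to 0.0424, adjusted p = 0.00063). Summed over the closely related segments of its family, the difference was -1.46 (0.27) in combination and -1.10 (0.42) in Wnt-C59 skin. Ighv2-2 was called lower in Wnt-C59 skin (-3.93 ± 1.29, 0.024) and Igkv6-15 in combination skin (-3.44 ± 1.31, 0.046). Neither call held without allogeneic library 3 (0.15 and 0.13). Over the alternative fits (edgeR, DESeq2 and limma-voom) the Ighv2-2 call held in 8 of 15, with adjusted p up to 0.23. The Igkv6-15 call held in 6 of 17 such fits, with adjusted p up to 0.66.

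Igha and Igkc did not pass the test under treatment, and a single library decided how they read. Igha averaged 131 ± 63.0 CPM in combination (n = 4), 119 ± 187 CPM in Wnt-C59 (n = 4) and 153 ± 156 CPM in allogeneic skin (SD, n = 3). Its difference from allogeneic skin was -0.22 ± 1.06 in combination skin (edgeR adjusted p = 0.88) and -0.36 ± 1.06 in Wnt-C59 skin (0.81). Without Wnt-C59 library 5 it was -2.58 in Wnt-C59 skin (0.017), and without allogeneic library 3 it was 0.90 (0.58) there and 1.06 (0.50) in combination skin. Igkc differed by -0.96 ± 1.10 (0.48) in combination and by -0.98 ± 1.11 (0.49) in Wnt-C59 skin, and by -3.36 (0.0068) in the Wnt-C59 group without library 5. The number of segments called between Wnt-C59 and allogeneic skin was 17 without Wnt-C59 library 5, 3 without Wnt-C59 library 4, 17 without allogeneic library 2 and 2 without allogeneic library 3. Between combination and allogeneic skin it was 14 without allogeneic library 2 and 2 without allogeneic library 3. The filter on low counts was applied anew in each of these fits, so the segments tested could differ. With Wnt-C59 library 5 and allogeneic library 3 both left out, an alternative chosen after seeing the data, 9 and 4 segments were called in the Wnt-C59 and combination comparisons.

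**Figure D5:**
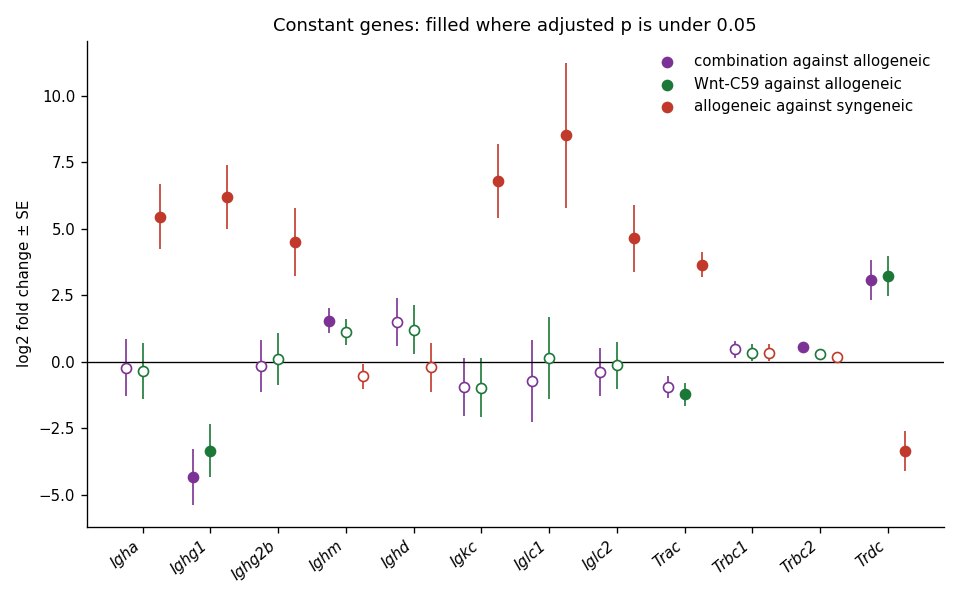
Log2 fold change (points, with SE as bars) of 12 constant genes in 3 comparisons, filled where the edgeR adjusted p is under 0.05. Igha and Igkc are filled in the comparison of allogeneic with syngeneic skin and open in both comparisons of treated with allogeneic skin, while Trdc is filled in all 3 and has the opposite sign in the treated comparisons.

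Of the 16 signalling genes, 7 were called lower and 0 higher in combination skin and 10 lower and 0 higher in Wnt-C59 skin, each against allogeneic skin, beside the 54.5% and 50.8% of all genes called in either direction in those comparisons. Cd8a averaged 2.81 ± 0.784 CPM in combination, 4.79 ± 2.50 in Wnt-C59 and 14.8 ± 6.32 CPM in allogeneic skin (SD, n = 4, 4 and 3). Cd28, a costimulatory receptor, averaged 0.699 ± 0.278, 0.757 ± 0.354 and 5.68 ± 2.26 CPM in the same groups. Tcrg-C2 was called lower with both treatments, at 1.32 ± 0.345 CPM in combination and 1.56 ± 0.578 CPM in Wnt-C59 skin against 4.22 ± 0.738 CPM in allogeneic skin. Sox13 was called higher with both.

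Of the plasma cell genes, 4 of 10 were called higher and 1 lower in combination skin (Txndc5, Sdc1, Fkbp11 and Xbp1 higher, Prdm1 lower) and 3 higher and 1 lower in Wnt-C59 skin. Jchain, the listed gene nearest to the immunoglobulins in function, differed by -1.45 ± 1.11 (edgeR adjusted p = 0.29) in combination and -1.02 ± 1.11 (0.47) in Wnt-C59 skin. Of the 5 B cell genes tested, Cd22 was called lower with both treatments, and Bank1 was called higher in combination skin. Of the 9 antibody receptors, 3 were called lower and 1 higher in combination skin and 5 lower and 0 higher in Wnt-C59 skin. Over all genes 54.5% and 50.8% were called in either direction in these comparisons. The plasma cell and receptor counts were near or below those shares. Fcgr2b averaged 131 ± 46.1 CPM in combination, 76.8 ± 21.6 in Wnt-C59 and 384 ± 152 CPM in allogeneic skin. Macrophage markers moved alongside, at 1244 to 2384, 1049 to 1696 and 3502 to 4425 CPM summed. Of the signals for B cells, Cxcl13 was called lower in combination skin (3.22 ± 1.71 against 33.9 ± 10.7 CPM), and Ccl19 was called higher with both treatments. Adipocyte markers, all 8 of them called higher with both treatments, summed to 2404 to 3269 CPM in combination, 908 to 3303 in Wnt-C59 and 333 to 842 CPM in allogeneic libraries. With an adipocyte score in the model 1 segment was called in combination and 2 in Wnt-C59 skin against allogeneic skin.

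Adding belumosudil to Wnt-C59 gave no call among the segments. Between combination and Wnt-C59 skin 0 of 50 segments passed edgeR's test, 1 had an unadjusted p under 0.05, DESeq2 called 1, and 0.231% of all genes were called (0.102% higher and 0.129% lower). Igha differed by 0.14 ± 0.99 (log2 fold change ± SE, edgeR adjusted p = 0.96), Trac by 0.27 ± 0.39 (0.73), Trdc by -0.17 ± 0.54 (0.89) and Ighm by 0.45 ± 0.43 (0.58). With a standard error of 0.99 for Igha, a log2 difference of that size was not detectable for this gene. None of the genes listed for B cells, plasma cells, antibody receptors or T cell receptor signalling was called in this comparison.

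Against syngeneic skin 30 segments were called higher and 0 lower in combination skin, where 54.1% of all genes were called, and 26 higher and 0 lower in Wnt-C59 skin, where 53.1% were called. Taking both directions together, both counts, of 50 segments tested, were near the share over all genes. Over all genes 26.9% and 26% were called higher in combination and Wnt-C59 skin, below the share of segments called higher. A segment could pass the filter through libraries with an allogeneic graft alone, so these counts describe only the tested segments. Of the called segments, 20 and 17 were immunoglobulin V segments. The Wnt-C59 count was 10 without Wnt-C59 library 5 and 17 without syngeneic library 4, and the combination count was 17 to 19 without any 1 of combination libraries 2 and 5 or syngeneic libraries 1 and 4. Trdc, lower in allogeneic skin, averaged 0.866 ± 0.347 CPM in combination, 0.983 ± 0.390 in Wnt-C59 and 1.07 ± 0.567 CPM in syngeneic skin (SD, n = 4 each).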

How the data were processed

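Skin RNA of 15 mouse samples was sequenced. The deposited values are estimated counts, neither scaled nor all whole, as read from the values themselves. The submitters' processing notes name FastQC, Trim Galore, HISAT2 and featureCounts with build GRCm39, without versions, and whether reads were assigned by strand is not given in the sources used here. Of 56059 identifiers, 91.5% matched a GENCODE M21 symbol. That release uses build GRCm38, so no coordinates are given. The segments and gene lists were chosen with earlier results of these data known.

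Estimated counts were rounded and fitted in edgeR 4.0.16 (R 4.3.3; TMM scaling, filterByExpr, robust quasi-likelihood fit of all 15 libraries by group), a change from the whole counts assumed at the outset. Calls used a Benjamini-Hochberg adjusted p under 0.05 over 18651 genes. The test was checked on simulated data with the same spread for every gene and changes set only in genes above a minimum mean count. That check does not cover the low counts and uneven libraries of many segments here. Named were all constant genes, in each comparison up to 8 called V segments averaging 0.5 CPM or more where higher, the 8 most abundant immunoglobulin and 8 T cell receptor segments, and up to 4 called genes per list. The leading V segments of single libraries, those concentrated in 1 library, Trdv4, Tcrg-C1, Ms4a1, Rag1 and Rag2 were chosen after their values were seen. Results for some genes are not reported here. Alternatives were DESeq2 1.42.0, limma-voom (limma 3.58.1), other filters and scaling, covariates, a replicate block and leaving out each library. Identity between segments was computed on aligned bases without end gaps, requiring 250 aligned bases. Total counts set the precision, and intervals cover counting error only.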

Additional observations from a re-analysis of the deposited data

Results flagged for a closer look

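Dixon's test for a library that lies far from the rest of its group was applied to the CPM of genes with a printed fold change in the groups of 4 libraries. It singled out 14 of 56 groups. The test's nominal rate of about 1 in 20 does not apply here. Genes share libraries, and a lone library above 0 is flagged whatever its value. Wnt-C59 library 5 was the high library for Igha (399 CPM), Igkc (131 CPM), Iglc1 (9.10 CPM), Iglv1 (8.53 CPM), Igkv10-96 (2.19 CPM), Igkv1-110 (1.95 CPM), Igkv12-44 (1.05 CPM) and Ighv1-7 (0.0951 CPM). Combination library 2 was high for Igkc (60.7 CPM) and combination library 5 was low for Ighg2b (0.136 CPM). In syngeneic skin the cases were single libraries with 1 or 2 counts where the others had 0: library 4 for Iglc2 (0.0441 CPM), library 2 for Igkv10-96 (0.0464 CPM) and Igkv12-44 (0.0927 CPM), and library 3 for Igkv1-110 (0.0458 CPM). The allogeneic group, with 3 libraries, was not tested this way.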

How the results depend on the processing

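Counts of segments called are given in the order allogeneic against syngeneic, Wnt-C59 and combination against allogeneic, combination against Wnt-C59, and Wnt-C59 and combination against syngeneic skin, with 29, 6, 6, 0, 26 and 30 in the report. The DESeq2 test called 52, 12, 10, 1, 43 and 52. With no filter on low counts, 14 and 15 were called with Wnt-C59 and combination against allogeneic skin. With limma-voom 9 were called between Wnt-C59 and syngeneic skin. With only the 2 compared groups fitted, 9, 3 and 8 were called in the comparisons of allogeneic, Wnt-C59 and combination with syngeneic skin, out of 12, 7 and 9 tested. With an adipocyte score as covariate the counts were 18, 2 and 1 for the first 3 comparisons, and 8 and 8 for Wnt-C59 and combination against syngeneic skin. Leaving out each library in turn, with the filter applied anew, gave 18 to 45, 2 to 17, 2 to 14, 0, 10 to 29 and 17 to 25 calls. Without the 2 libraries richest in immunoglobulin, 12 were called between Wnt-C59 and syngeneic skin. Same-numbered libraries did not deviate together (correlations -0.35 to 0.17), and with the replicate number as a block 8, 2 and 3 segments were called in the first 3 comparisons, and 4 and 5 for Wnt-C59 and combination against syngeneic skin. With the block the Trdc calls of allogeneic against syngeneic (-2.98, edgeR adjusted p = 0.066) and Wnt-C59 against allogeneic skin (2.15, 0.16) were lost. Scaling by DESeq2 size factors, removing a GC trend, summing V segments over families and other minimums for the set kept all 6 counts within 1.5 times, and the cause of the other shifts was not tested.

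The sign turned for Ighm between allogeneic and syngeneic skin with the adipocyte score (0.15), for Igha between Wnt-C59 and allogeneic skin without allogeneic library 3 (0.90), and for Igha between combination and allogeneic skin with limma-voom (0.17), with the replicate block (0.20), and without allogeneic library 3, alone or with Wnt-C59 library 5 (1.06). None of these values passed the test. Without 1 library at a time, Igha ranged over -2.58 to 0.90 for Wnt-C59 and -0.62 to 1.06 for combination against allogeneic skin. Of 650 alternative values for 40 fold changes, 547 stayed on their side of the threshold with their sign. Over all genes, 5556, 9481, 10168, 43, 9898 and 10081 were called. The adipocyte score gave 2343, 3079 and 2640 in the first 3 comparisons. The replicate block gave 2968, 3227, 0 and 5256 for allogeneic against syngeneic, Wnt-C59 against allogeneic, combination against Wnt-C59 and combination against syngeneic skin, and leaving out both rich libraries gave 3663 between allogeneic and syngeneic skin. Between combination and Wnt-C59 skin, DESeq2 called 1474 genes and the fit of both groups alone 18, and without 1 library 1 to 17 were called in the 6 cases past 1.5 times. Low counts limit most V segments: 124 of the 174 segments were not tested.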
